A study of Mus musculus with 14 samples.

Results

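C2C12 cells, an immortalized mouse myoblast line that can fuse into muscle fibres in culture, were transfected with small interfering RNA (siRNA) against the Qk6 and Qk7 isoforms of Quaking (Qk) and set against cells transfected with control siRNA. The comparison takes every sample labelled Qk6/7 depletion and every sample labelled control, which makes 8 of the series' 14 labelled samples. Each group has 3 replicates, with replicate 1 sequenced in 2 runs that count as 1 replicate. Cells were grown in DMEM with FBS, transfected with Lipofectamine 2000, and their total RNA was depleted of ribosomal RNA before sequencing. Both groups are transfected cultures of the same line, grown as myoblasts. The sources used here do not give the siRNA sequences, the time after transfection or whether replicates were separate cultures, so the p-values cover the variation among these samples, possibly of technical origin. The series also holds 3 replicates of Qk5 depletion, whose values are set beside those of Qk6/7 depletion where stated, and 1 replicate of a depletion of all isoforms, not analysed here. Qk5 and Qk6/7 depletion were compared with the same control samples.

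Quaking is an RNA-binding protein of the STAR family that binds RNA around the core word ACUAA through its KH domain. Alternative last exons give its isoforms different C-terminal tails: Qk5 carries a nuclear localization signal and acts on splicing in the nucleus, while Qk6 and Qk7 can stay in the cytoplasm, where Quaking is known to act on RNA stability and translation. In muscle cells Quaking is known as a regulator of alternative splicing, and in the brain for its part in myelination. The question the design poses is which RNAs change in level or exon use when only the Qk6 and Qk7 isoforms are depleted.

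The values are means, folds and adjusted p-values from 2 tables of the authors. For each gene, the expression table lists the mean over a group of read counts divided by size factors (normalized counts), the fold of the depleted over the control mean, and an adjusted p from DESeq. It has no value per replicate, so no SD, n per value or depth per sample can be given, and whether the replicates of the groups overlap is not known here. Normalized counts are not divided by gene length, so levels are compared between groups and not between genes. A gene is called here when the authors' DESeq adjusted p is under 0.05. The table holds 1036 genes, of which 449 have an adjusted p under 0.1 in Qk6/7 depletion and 587 are present only by their adjusted p in Qk5 depletion. Of a gene outside it nothing more is known here.

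Qk itself (gene cluster kgCluster10008) is the check on the label. In the authors' deposited table its mean was 5271 normalized counts in Qk6/7 depletion, against 5875 in control cells and 3267 in Qk5 depletion. The fold of 0.897 in Qk6/7 depletion was not called (adjusted p = 1 by the authors' DESeq), while the fold in Qk5 depletion was 0.556 (adjusted p = 0.00246), per the authors' deposited table. These are values of the whole gene, which do not separate Qk6 and Qk7 from Qk5, and the splicing table has no bin of Qk. Depletion of the targeted isoforms is therefore not shown by these tables in either direction.

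Qk6/7 depletion was followed by more falls than rises. By the authors' deposited table, 101 genes were higher and 214 lower by the authors' DESeq, so 32.1% of calls were upward. Of about 16564 genes tested these make 1.9% called in all, 0.61% higher and 1.29% lower. Within the table, whose genes were kept for a low adjusted p in either depletion, the shares are 30.4%, 9.75% and 20.7%. In these bulk samples, fewer cells of a type and less RNA per cell cannot be told apart. Called falls were deeper than called rises were high: 141 of the 214 falls were to 0.5 of the control mean or less, and 43 of the 101 rises were at least 2-fold. The median fold of the called genes was 1.94 among the rises and 0.453 among the falls. Lower genes included more weakly expressed ones, with 24.8% of them below 100 normalized counts in both groups against 10.9% of the higher genes. The smallest fold that was called upward was 1.65 and the smallest fall was to 0.604, and no smaller change was called.

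**Figure D1:**
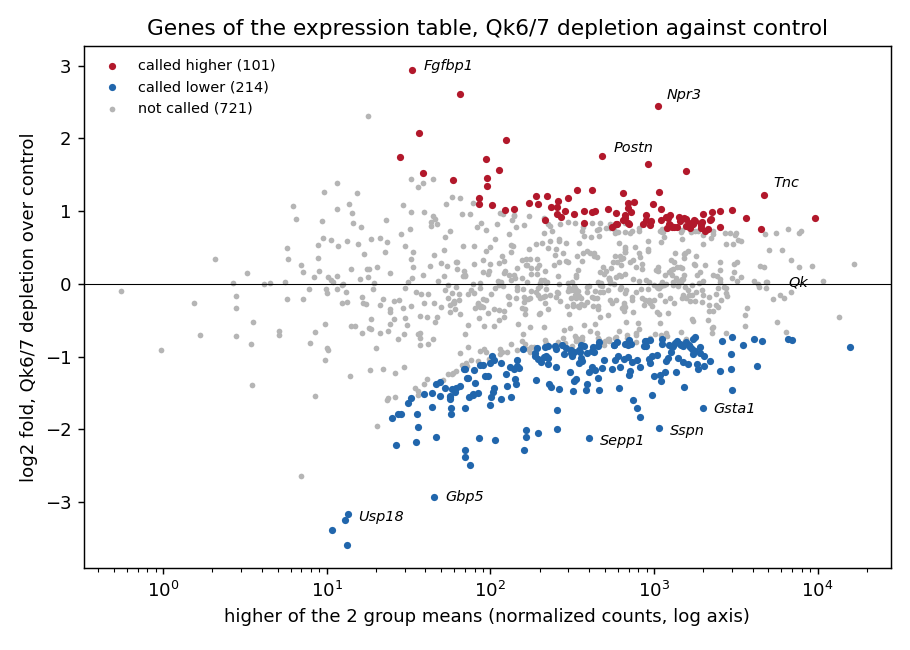
Each point is a gene of the expression table, with the higher of its Qk6/7 and control means on a log axis (normalized counts) against its log2 fold of Qk6/7 depletion over control. The 101 genes called higher and the 214 called lower lie above 1.65-fold and below 0.604-fold, and Qk lies near 0; genes listed at 0 in either group are not drawn.

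In the Qk5 comparison, with the same controls, 493 of 16604 genes (2.97%) were called. Of the 101 genes higher in Qk6/7 depletion, 19 were also called higher in Qk5 depletion, none lower, and 82 were not called. Of the 214 genes lower in Qk6/7 depletion, 14 were also called lower in Qk5 depletion, 17 were called higher and 183 were not called. The median fold of the 101 genes was 1.94 in Qk6/7 depletion and 1.29 in Qk5 depletion, and that of the 214 genes was 0.453 and 0.945, per the authors' deposited table. Whether a gene's folds differ between the depletions was not tested.

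The gene with the largest rise at a mean of 100 or more was Npr3 (kgCluster8103), the clearance receptor that removes natriuretic peptides from the cell surface. Its mean was 1053 normalized counts in Qk6/7 depletion and 194 in control cells, a fold of 5.43 with an adjusted p of 1.34e-19 by DESeq, per the authors' deposited table. In Qk5 depletion its fold was 1.36 and was not called. The gene lists here and below were chosen with earlier results of these data known, so their called shares are descriptions only. Of the 16 genes of natriuretic peptide and cGMP signalling, 2 are in the table and Npr3 alone was called (6.25%, against 1.9% of genes tested). The other, Nppb, the B-type peptide that the receptor binds, averaged 68.9 normalized counts in Qk6/7 depletion and 60.6 in control cells, per the authors' deposited table, and was not called.

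The 15 largest rises held 2 genes of the extracellular matrix list. Postn, a matricellular protein induced in injured muscle and connective tissue, averaged 483 normalized counts in Qk6/7 depletion and 143 in control cells (fold 3.38, adjusted p = 2.00e-09 by DESeq, per the authors' deposited table). Tnc (tenascin C), a large matricellular glycoprotein, averaged 4731 normalized counts in Qk6/7 depletion and 2022 in control cells, a fold of 2.34 (adjusted p = 2.47e-05), per the authors' deposited table. Of 76 genes of the extracellular matrix, 20 are in the table, 7 were called higher and 2 lower, or 11.8% of the list against 1.9% of all genes tested. The other 5 higher members were Ccbe1, a matrix protein needed for lymphatic growth (fold 2.14), Fbn1, the microfibril protein fibrillin 1 (2.00), the proteoglycan-cleaving Adamts5 (1.89), Npnt, an integrin ligand of basement membranes (1.86), and Col8a1, a short-chain collagen (1.65), per the authors' deposited table. The lower members were Emilin1, an elastic fibre glycoprotein (fold 0.544), and Col6a1, a chain of collagen VI (0.592). The major fibrillar collagen gene Col1a1 averaged 4420 normalized counts in Qk6/7 depletion and 3733 in control cells, per the authors' deposited table and was not called. The median log2 fold of the 20 matrix genes in the table was 0.23, against -0.11 over all genes of the table. At an adjusted p under 0.01 the list had 4 called members.

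**Figure D2:**
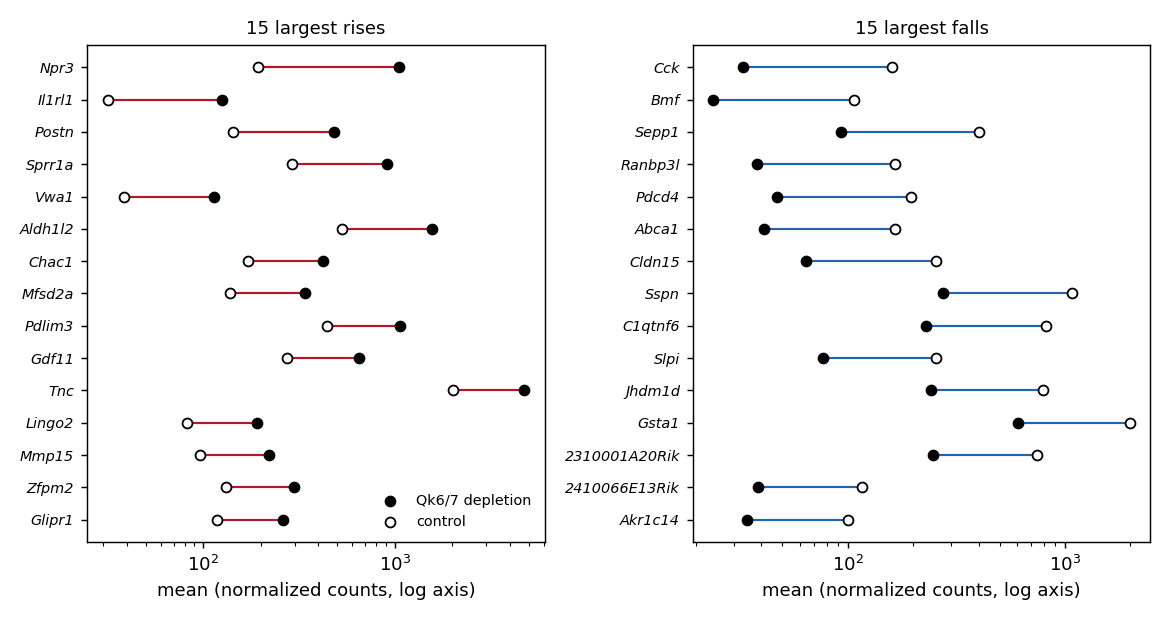
Means in Qk6/7 depletion (filled) and control cells (open) of the 15 largest rises and the 15 largest falls among called genes with a mean of at least 100 normalized counts in either group, on log axes, with no error bars because the table has no value per replicate. Npr3 stands at 1053 against 194 normalized counts at the top of the rises, and Cck at 32.8 against 160 at the top of the falls.

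Of 52 genes of TGF-beta and BMP signalling, 5 are in the table, 4 were called higher and none lower (7.69% of the list, against 0.61% of genes tested that were higher). Gdf11, a ligand of the activin branch, averaged 650 normalized counts in Qk6/7 depletion and 273 in control cells (fold 2.38, adjusted p = 0.000107 by DESeq, per the authors' deposited table). Fst (follistatin), a secreted trap of activin and myostatin, averaged 94.7 normalized counts in Qk6/7 depletion and 37.2 in control cells (fold 2.55), and its relative Fstl3 averaged 1279 normalized counts in Qk6/7 depletion and 745 in control cells (fold 1.72), per the authors' deposited table. Ctgf, a secreted protein induced by TGF-beta, had a fold of 1.82. Tgfb1, the founding ligand, averaged 487 normalized counts in Qk6/7 depletion and 416 in control cells, per the authors' deposited table and was not called. At an adjusted p under 0.01 the list had 2 called members, Gdf11 and Fst.

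The other large rises came from several functions. Il1rl1 (ST2), the receptor for the cytokine IL-33, averaged 125 normalized counts in Qk6/7 depletion and 31.7 in control cells (fold 3.93, adjusted p = 2.89e-07 by DESeq, per the authors' deposited table). Sprr1a, a cornified envelope precursor that is also induced in stressed muscle and nerve, averaged 912 normalized counts in Qk6/7 depletion and 292 in control cells (fold 3.12), per the authors' deposited table. Both were also called higher in Qk5 depletion, with folds of 3.45 and 2.52. Pdlim3, a PDZ and LIM domain protein of the Z-disc, had a fold of 2.40 and Mfsd2a, a transporter of lysophosphatidylcholine, one of 2.45. Vwa1, a von Willebrand factor A domain protein of the matrix, had a fold of 2.96, the membrane-type metalloproteinase Mmp15 one of 2.31, the GATA cofactor Zfpm2 one of 2.27, the neuronal membrane protein Lingo2 one of 2.32, and Glipr1 one of 2.21, per the authors' deposited table. Below 100 normalized counts, Fgfbp1, a carrier of fibroblast growth factors, averaged 33.4 in Qk6/7 depletion and 4.34 in control cells, and the neuronal adhesion molecule Nrcam 65.5 in Qk6/7 depletion and 10.8 in control cells, per the authors' deposited table. Fgfbp1 (4.70), Glipr1 (2.90) and Pdlim3 (1.72) were called higher in Qk5 depletion too, with these folds, per the authors' deposited table. The folds of Fgfbp1 and Nrcam, 7.70 and 6.08 in Qk6/7 depletion, rest on these low control means: with 10 added to both means the log2 folds of 2.94 and 2.60 became 1.60 and 1.86.

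Of 51 genes of the amino acid and endoplasmic reticulum (ER) stress response, 7 are in the table, 5 were called higher and none lower (9.80% of the list, against 0.61% of genes tested that were higher). Aldh1l2, a mitochondrial enzyme of folate metabolism, averaged 1569 normalized counts in Qk6/7 depletion and 533 in control cells (fold 2.94, adjusted p = 1.09e-08 by DESeq, per the authors' deposited table). Chac1, a glutathione-degrading enzyme of the same response, averaged 420 normalized counts in Qk6/7 depletion and 172 in control cells (fold 2.45). Slc7a5, a transporter of large neutral amino acids, had a fold of 2.02, the pseudokinase Trib3 one of 1.84 and Aldh18a1, an enzyme of proline synthesis, one of 1.71, per the authors' deposited table. Asns (asparagine synthetase) averaged 2292 normalized counts in Qk6/7 depletion and 1422 in control cells, with an adjusted p of 0.0555, and the ER chaperone Pdia4 averaged 2160 normalized counts in Qk6/7 depletion and 2380 in control cells, per the authors' deposited table; neither was called. At an adjusted p under 0.01 the list had 3 called members. Outside the list, Ero1l, an oxidase of the ER, was called lower (fold 0.512, adjusted p = 0.00406 by DESeq, per the authors' deposited table).

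The response is known to act through the factor ATF4, which binds the composite word TGATGNAA with C/EBP partners. In RefSeq promoters (GRCm38.p6, 250 bases before to 50 after the annotated start), searched on both strands, 3 of the 5 higher members had an entry. Of these, 2 held the word, Chac1 and Trib3. The share was 4.51% of 27025 genes, 7.25% of the genes called higher, which include these members, and 3.61% of those called lower. The promoter of Chac1 is shown because its gene had one of the largest rises, with the match in capitals as it reads on the strand shown.
Chac1 (chr2:119350992-119351291, plus strand): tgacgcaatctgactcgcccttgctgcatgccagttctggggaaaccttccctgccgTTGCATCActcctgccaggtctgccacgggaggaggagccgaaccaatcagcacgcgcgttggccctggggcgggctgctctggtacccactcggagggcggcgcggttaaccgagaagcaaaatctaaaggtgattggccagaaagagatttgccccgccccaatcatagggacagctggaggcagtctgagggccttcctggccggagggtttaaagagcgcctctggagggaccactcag

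Of 53 genes of receptor tyrosine kinase signalling and its MAPK feedback, 9 are in the table, 5 were called higher and none lower (9.43% of the list, against 0.61% of genes tested that were higher). Rnd1, an atypical small GTPase, averaged 693 normalized counts in Qk6/7 depletion and 337 in control cells (fold 2.05, adjusted p = 0.00145 by DESeq, per the authors' deposited table). Phlda1 had a fold of 1.82, the AP-1 subunit Fosl1 one of 1.81, Myc one of 1.77 and Dusp5, a phosphatase that acts on ERK, one of 1.75, per the authors' deposited table. At an adjusted p under 0.01, Rnd1 alone was called. In Qk5 depletion the folds of Rnd1 and Dusp5 were 0.788 and 0.729 and those of Fosl1 and Myc 0.993 and 1.00, none of them called, per the authors' deposited table.

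Among the falls at a mean of 100 or more, Cck, the peptide hormone cholecystokinin, had the largest, with 32.8 normalized counts in Qk6/7 depletion and 160 in control cells (fold 0.205, adjusted p = 1.10e-11 by DESeq, per the authors' deposited table). In Qk5 depletion it was called higher, with a fold of 1.88. Sepp1, the selenium carrier selenoprotein P, averaged 93.2 normalized counts in Qk6/7 depletion and 403 in control cells (fold 0.231, adjusted p = 2.72e-12 by DESeq), per the authors' deposited table. Sspn (sarcospan, kgCluster21783), a membrane protein of the dystrophin complex, averaged 273 normalized counts in Qk6/7 depletion and 1075 in control cells (fold 0.254, adjusted p = 1.50e-13), the smallest adjusted p among the falls, per the authors' deposited table. The other called member of the 37 genes of the dystrophin complex, costamere and Z-disc was Pdlim3, which rose. Called members make 5.41% of that list, against 1.9% of genes tested. Bmf, a BH3-only protein that promotes apoptosis, averaged 24.1 normalized counts in Qk6/7 depletion and 106 in control cells (fold 0.226), and Pdcd4, an inhibitor of translation initiation, 47.3 in Qk6/7 depletion and 196 in control cells (fold 0.241), per the authors' deposited table. Ranbp3l (fold 0.232), the cholesterol exporter Abca1 (0.250), the tight-junction claudin Cldn15 (0.252), the C1q/TNF-related protein C1qtnf6 (0.281), the protease inhibitor Slpi (0.302) and the histone demethylase Jhdm1d (0.306) followed, per the authors' deposited table. Akr1c14, an aldo-keto reductase, had a fold of 0.342, and 2310001A20Rik and 2410066E13Rik, whose roles are not described here, had folds of 0.330 and 0.335, per the authors' deposited table.

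The transcripts of these genes were searched for the words ACTAAC and ACTAAT, spellings of the core that Quaking binds, in the longest annotated 3′ UTR of each gene (GENCODE M21, GRCm38). Sites from some of the deepest falls are shown with the word in capitals and 10 bases on either side.
Bmf (chr2:118530379-118530404, minus strand): gaccaaacttACTAACtcaggcaagc
Abca1 (chr4:53031473-53031498, minus strand): tggaaaacttACTAACtgtgaatatg
Cldn15 (chr5:136975634-136975659, plus strand): agggggagtcACTAACaactgatctg
Ranbp3l (chr15:9065234-9065259, plus strand): agatttgataACTAATttggtctatt

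Of the 200 lower genes with an annotated 3′ UTR, 28% held ACTAAC, against 17.8% of the 101 higher genes, 19.4% of 655 table genes not called and 18.4% of 21117 annotated genes. ACTAAT was held by 30% of the lower and 27.7% of the higher genes, against 23.1% of table genes not called and 22% of annotated genes. In the longest 3′ UTR the median length was 1583 nt for lower and 1514 nt for higher genes. It was 1236 nt for table genes not called and 1086 nt for annotated genes. The order of lower and higher genes turned in the shortest annotated 3′ UTR, a choice made after the data were seen. Medians there were 470.5 nt for lower and 612 nt for higher genes, with 446 nt for table genes not called and 366 nt for annotated genes. Per kilobase of the longest 3′ UTR, ACTAAC occurred 0.171 times in lower genes, 0.113 in higher genes and 0.150 in annotated genes, and ACTAAT 0.200, 0.180 and 0.195 times. Lower genes with ACTAAC had a median log2 fold of -1.17 and those without it one of -1.10. The spread of these shares over samples is not known, and no test was made of them.

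A pair of other words, GTCTTAA and GGTCTTA, which overlap in the run GGTCTTA followed by A, had been picked earlier from these same lower genes, so that their share there is a description only. Of the 200 lower genes 74 (37%) held either word, against 10.9% of higher genes, 15.7% of table genes not called and 14.1% of annotated genes. Matches were 0.332 per kilobase in lower genes, 0.0719 in higher genes and 0.121 in annotated genes. In the shortest annotated 3′ UTR of each gene, a choice made after the data were seen, the shares were 23%, 2.97%, 8.85% and 7.53%. Lower genes with either word had a median log2 fold of -1.03 and those without one of -1.18. Of the 15 largest falls 5 held a word of the pair, and of the 15 largest rises 1. Sites in Ranbp3l, Pdcd4 and Cldn15 are shown because these genes are among the deepest falls that hold the pair.
Ranbp3l (chr15:9065681-9065707, plus strand): ttaggtggtcGTCTTAAtagtctagta
Pdcd4 (chr19:53929721-53929747, plus strand): catattgattGGTCTTAaatattagac
Cldn15 (chr5:136975499-136975525, plus strand): atgagacgcaGTCTTAAgggaatgagg

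Of 46 interferon-stimulated genes, 13 are in the table, all with a fold under 1, and 10 were called lower and none higher (21.7% of the list against 1.29% of genes tested that were lower). Like the other lists, this one was chosen with earlier results of these data known, so its share is a description only. Gbp2, a guanylate-binding protein induced by interferon gamma, averaged 13.4 normalized counts in Qk6/7 depletion and 69.7 in control cells (fold 0.192, adjusted p = 1.46e-06 by DESeq, per the authors' deposited table). Ifit3, an effector of the antiviral response, averaged 14.3 normalized counts in Qk6/7 depletion and 69.4 in control cells (fold 0.206, adjusted p = 1.92e-05 by DESeq), per the authors' deposited table. Gbp5 averaged 5.94 normalized counts in Qk6/7 depletion and 45.4 in control cells, and Ddx58, the cytoplasmic RNA sensor RIG-I, 177 in Qk6/7 depletion and 357 in control cells (fold 0.495), per the authors' deposited table. The others were the ISG15 protease Usp18 (fold 0.112), Gbp3 (0.255), the antiviral enzyme Rsad2 (0.341), Xaf1 (0.357), Ifit1 (0.424) and Oasl2 (0.443).

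These genes were weakly expressed in both groups: 3 of the 10, Ddx58, Ifit1 and Xaf1, reached 100 normalized counts in control cells, per the authors' deposited table. With 10 added to both means, the log2 folds of Usp18, Gbp5, Gbp2 and Gbp3 moved to -1.03, -1.80, -1.77 and -1.26, against deposited values of -3.16, -2.93, -2.38 and -1.97. Gbp2, Gbp3 and Gbp5 are close paralogs whose reads the counting could split, so their separate values are uncertain. Among the remaining listed genes, Isg15 (25.3 normalized counts in Qk6/7 depletion and 59.1 in control cells), Cxcl10 (14.4 in Qk6/7 depletion and 17.3 in control cells) and Rtp4 (27.2 in Qk6/7 depletion and 36.9 in control cells) were not called, per the authors' deposited table. In Qk5 depletion, Ifit1 (fold 0.190), Ifit3 (0.251) and Rsad2 (0.231) were also called lower, Xaf1 was called higher (1.69), and Gbp2, Gbp3 and Gbp5, with folds of 1.02, 0.750 and 0.660, were not called.

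Interferon acts on such genes through STAT and IRF factors, and the word GAAA repeated after a gap of 2 bases is the core of the element that IRF and STAT complexes bind. On both strands of the RefSeq promoters, 7 of the 9 called list members with an entry held it: Ifit1, Ifit3, Gbp2, Gbp3, Gbp5, Rsad2 and Ddx58. Over all genes the share was 3.99%, over the 69 higher genes with an entry 2.90% and over 516 table genes not called 3.88%. Over the 166 lower genes with an entry it was 14.5%, and these include the called list members themselves. Matches of different words searched here shared bases in 8 of 32851 promoters. The promoters of Ifit3 and Gbp2 are shown because they belong to the deepest falls of the list. Their matches lie on the strand opposite to the one shown, so the capitals read TTTC, 2 bases, TTTC.
Ifit3 (chr19:34583279-34583578, plus strand): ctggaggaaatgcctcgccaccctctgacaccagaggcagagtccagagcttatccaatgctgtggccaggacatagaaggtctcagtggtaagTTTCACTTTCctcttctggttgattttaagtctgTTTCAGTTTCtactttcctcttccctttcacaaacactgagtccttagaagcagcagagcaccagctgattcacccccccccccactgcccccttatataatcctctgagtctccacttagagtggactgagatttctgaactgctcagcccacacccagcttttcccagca
Gbp2 (chr3:142620413-142620712, plus strand): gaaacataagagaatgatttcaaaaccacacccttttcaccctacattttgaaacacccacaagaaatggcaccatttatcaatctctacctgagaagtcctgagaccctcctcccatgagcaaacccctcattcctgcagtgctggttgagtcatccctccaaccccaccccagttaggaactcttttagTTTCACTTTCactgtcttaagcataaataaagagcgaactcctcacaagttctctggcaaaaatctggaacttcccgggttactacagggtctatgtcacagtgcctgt

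**Figure D3:**
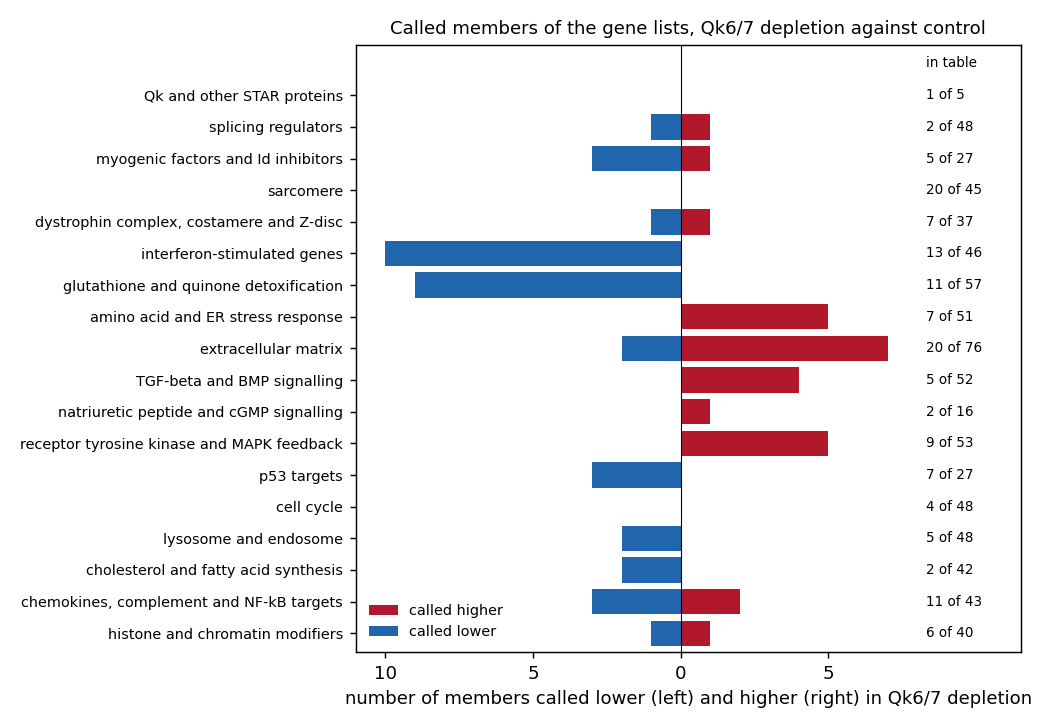
Bars give the number of members of each gene list called higher (right) and lower (left) in Qk6/7 depletion, with the members present in the table of those in the list at the right. Interferon-stimulated genes (10) and detoxification genes (9) have called members on the lower side only, and the 20 sarcomere genes in the table have none.

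Of 57 genes of glutathione and quinone detoxification, 11 are in the table, 9 were called lower and none higher (15.8% of the list, against 1.29% of genes tested that were lower). Nothing is known here of the members outside the table. Nqo1, the quinone reductase that is a standard target of the factor NRF2, averaged 1087 normalized counts in Qk6/7 depletion and 2990 in control cells (fold 0.364, adjusted p = 1.68e-07 by DESeq, per the authors' deposited table). The glutathione transferase gene Gsta1 averaged 610 normalized counts in Qk6/7 depletion and 1984 in control cells (fold 0.307, adjusted p = 7.36e-11), and Gsta4 averaged 1946 normalized counts in Qk6/7 depletion and 4265 in control cells (fold 0.456), per the authors' deposited table. Gsta2 (fold 0.347) is nearly identical to Gsta1, so reads may be split between them and their separate values are uncertain. Gsta3 (0.178), the microsomal transferase Mgst1 (0.363), the aldehyde dehydrogenase Aldh3a1 (0.436), catalase (Cat, 0.421), which breaks down hydrogen peroxide, and Gstm1 (0.565) completed the falls, per the authors' deposited table. The other members in the table were not called: Hmox1 (heme oxygenase 1) averaged 508 normalized counts in Qk6/7 depletion and 450 in control cells, and the cystine transporter Slc7a11 235 in Qk6/7 depletion and 255 in control cells, per the authors' deposited table. In Qk5 depletion Gsta3 (fold 0.217), Aldh3a1 (0.412) and Gsta2 (0.452) were also called lower, per the authors' deposited table. With 10 added to both means, the log2 fold of Gsta3 in Qk6/7 depletion was -1.87, against a deposited value of -2.49. At an adjusted p under 0.01, 8 of the 9 were called. NRF2 binds the word TGACNNNGC, which 2 of the 7 called members with a RefSeq promoter held (Gsta3 and Mgst1), a share of 28.6% against 14% of all genes. The word was held by 21.7% of the genes called higher and 13.3% of those called lower. Sequence outside the promoter window given above was not searched, so members without a match, Nqo1 among them, may hold the word elsewhere. Whether NRF2 acts on these genes was not tested.

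**Figure D4:**
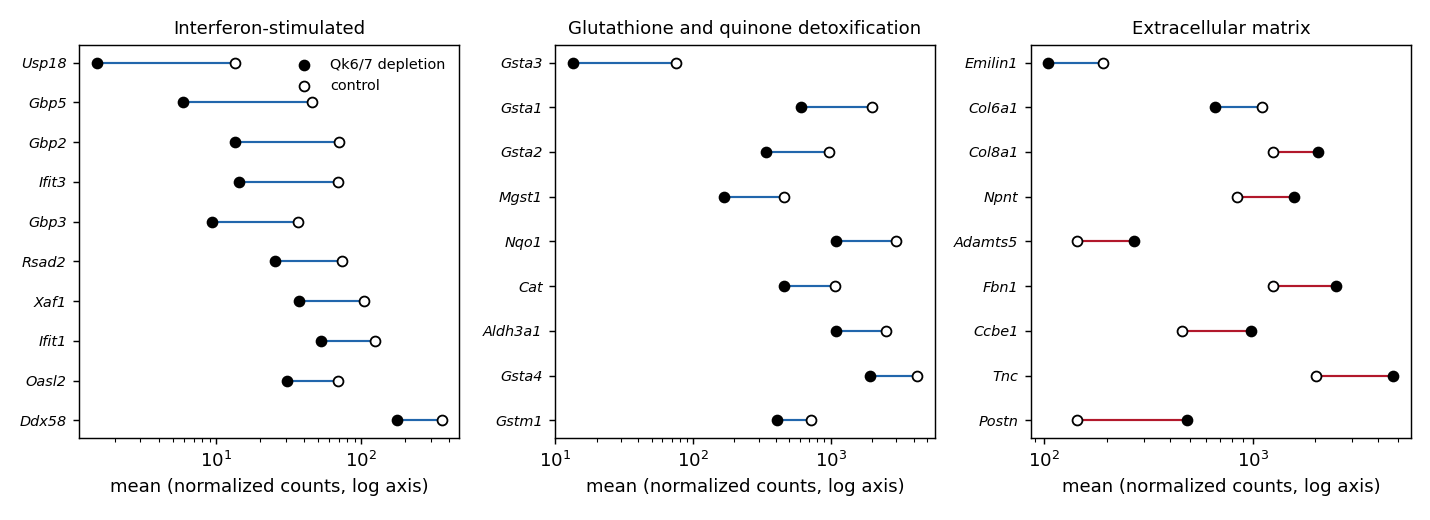
Means in Qk6/7 depletion (filled) and control cells (open) of the called members of the interferon, detoxification and extracellular matrix lists, on log axes in normalized counts, with no error bars because the table has no value per replicate. Every interferon and detoxification gene shown is lower in Qk6/7 depletion, while matrix genes are higher except Emilin1 and Col6a1.

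On the lists of myogenic factors and of the sarcomere, 4 regulators were called and no sarcomere gene. Pdlim3 of the Z-disc and Sspn of the dystrophin complex, both called, stand on a separate list given above. Of 27 myogenic factors and their inhibitors, 5 are in the table, with 1 called higher and 3 lower. These make 14.8% of the list, against 1.9% of all genes tested. Myf5, a myogenic factor of proliferating myoblasts, averaged 1521 normalized counts in Qk6/7 depletion and 810 in control cells (fold 1.88, adjusted p = 0.00586 by DESeq, per the authors' deposited table). The inhibitors of such factors fell: Id1 averaged 635 normalized counts in Qk6/7 depletion and 1125 in control cells (fold 0.564), Id2 averaged 822 normalized counts in Qk6/7 depletion and 1470 in control cells (fold 0.559), and Id3 averaged 1024 normalized counts in Qk6/7 depletion and 1729 in control cells (fold 0.592), with adjusted p between 0.0151 and 0.0308 by DESeq, per the authors' deposited table. None of the 3 was called at 0.01. Myog (myogenin), which marks the onset of differentiation, averaged 232 normalized counts in Qk6/7 depletion and 153 in control cells and was not called (adjusted p = 0.476 by DESeq), per the authors' deposited table.

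Of 45 sarcomere genes 20 are in the table and none was called, with 18 of the 20 at a fold above 1 and a median log2 fold of 0.39. Ttn (titin) averaged 2000 normalized counts in Qk6/7 depletion and 1367 in control cells, Acta1 (skeletal actin) 620 in Qk6/7 depletion and 475 in control cells, and Tnnt1 (slow troponin T), with the lowest adjusted p of the list at 0.0873 by DESeq, 230 in Qk6/7 depletion and 133 in control cells, per the authors' deposited table. These genes other than Tnnt1 entered the table through Qk5 depletion, so their number here says nothing of Qk6/7 depletion. Of the 8 markers of fused myotubes 6 are in the table and none was called, with a summed level of 1354 normalized counts in Qk6/7 depletion and 1110.5 in control cells.

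Of the 10 myoblast markers the table holds Myf5 only, so the label of the cells can be checked on that gene alone. Markers of other cell types are given by their counts in the table. Of 12 macrophage markers Cd68 alone is in the table, at 19.3 normalized counts in Qk6/7 depletion and 56.6 in control cells, per the authors' deposited table, where it was called lower. Of 9 smooth muscle markers Mylk alone is in the table, at 17.9 in Qk6/7 depletion and 46.3 in control cells, also lower. Runx2, the bone factor that myoblast lines can also express, was called higher (fold 1.84), as 1 of 12 osteoblast and chondrocyte markers. Of 10 markers of keratinocytes and other epithelium 3 are in the table, and Sprr1a was called higher (fold 3.12) while Krt8 (fold 0.684) and Krt14 (1.02) were not called, per the authors' deposited table. Adipocyte, endothelial, and oligodendrocyte and Schwann markers have no member in the table. Cd68 moved with the interferon genes, and its part in that result was not tested.

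Smaller groups are given by their counts. Of 27 p53 targets 7 are in the table and 3 (11.1%) were called lower, against 1.29% of genes tested. They were Trp53inp1, which promotes p53-dependent death and autophagy (fold 0.422), the antiproliferative Btg2 (0.470) and the death receptor Eda2r (0.553), per the authors' deposited table. Of 48 cell cycle genes 4 are in the table and none was called. Of 48 lysosome and endosome genes 2 (4.17%) were called lower, against 1.29% of genes tested: Snx10, a sorting nexin (fold 0.365), and Cd68. Of 42 genes of cholesterol and fatty acid synthesis and storage 2 (4.76%) were called, both lower, against 1.29% of genes tested. They were the lipid droplet protein Plin4 (fold 0.404) and Hmgcll1 (0.317). In Qk5 depletion both were called higher, with folds of 2.00 and 2.28, per the authors' deposited table. Of 43 chemokine, complement and NF-kB genes 5 (11.6%) were called, against 1.9% of genes tested: Il1rl1 and Tnfaip3 (A20, fold 1.87) were called higher, and C1qtnf6, the prostaglandin-degrading Hpgd (0.367) and Ptgs1 (cyclooxygenase 1, 0.593) lower. Of 40 chromatin modifiers 2 (5%) were called, with Bahcc1 (fold 2.17) higher and Jhdm1d lower. Of 48 splicing regulators 2 (4.17%) were called, with Rbm38 (2.08) higher and Celf2 (0.551) lower, per the authors' deposited table. Both shares stand against 1.9% of genes tested. None of 14 reported Qk RNA targets on the list is in the expression table.

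Exon use was tested by the authors with DEXSeq, which asks whether a bin, a stretch of exon that transcripts of a gene use or skip as a unit, changes its share of the gene's reads. The test covers control, Qk5 and Qk6/7 depletion at once. A called bin is thus one that differs somewhere among the 3 conditions, and its log2 fold in Qk6/7 depletion has no test of its own. The table holds 4019 bins of 228 genes, 3737 of them with an adjusted p. By the authors' deposited table a total of 231 bins of 192 genes had an adjusted p under 0.05, or 0.163% of about 142000 bins tested and 6.18% of those in the table.

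Of the 231 called bins 94 were used more in Qk6/7 depletion than in control cells (0.0662% of bins tested, 2.52% of the table), 135 were used less (0.0951% and 3.61%) and 2 had a log2 fold of 0. Changes were small: the median absolute log2 fold was 0.27 in Qk6/7 depletion and 0.56 in Qk5 depletion, and 79 bins had the larger absolute value in Qk6/7 depletion. At an absolute log2 fold of at least 0.5 there were 19 bins used more and 45 used less, and at least 1 there were 6 and 15. The signs in the depletions, which share the controls, were opposite in 118 of the 231 bins.

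Called bins are described by their place in the gene, with no test of a difference between places. Of 64 called last bins, which hold the 3′ end, 50 were used less and 14 more in Qk6/7 depletion, with a median log2 fold of -0.17. They make 29.8% of the 215 last bins with an adjusted p, whose median log2 fold was -0.08 against 0.02 over all 3737 bins of the table. Called internal bins that stand apart from their neighbours were used more in 52 cases and less in 42, out of 96. These 96 make 3.7% of the 2594 such bins with an adjusted p, against 6.18% called over all places. Called internal bins that abut another bin, which marks an alternative splice site, a retained intron or an alternative end, were used less in 40 and more in 23 of 63 cases. These 63 make 8.67% of the 727 abutting bins with an adjusted p. Of 8 called first bins, 3.98% of 201 with an adjusted p, 5 were used more and 3 less. At an absolute log2 fold of at least 0.5, the called bins used more and less were 2 and 9 last bins, 5 and 20 abutting bins and 0 and 3 first bins. Over all bins of the table with an adjusted p, these were 7 and 17, 49 and 72, and 7 and 15. Called separate internal bins were near even at 12 and 13, against 86 and 64 over all such bins with an adjusted p.

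**Figure D5:**
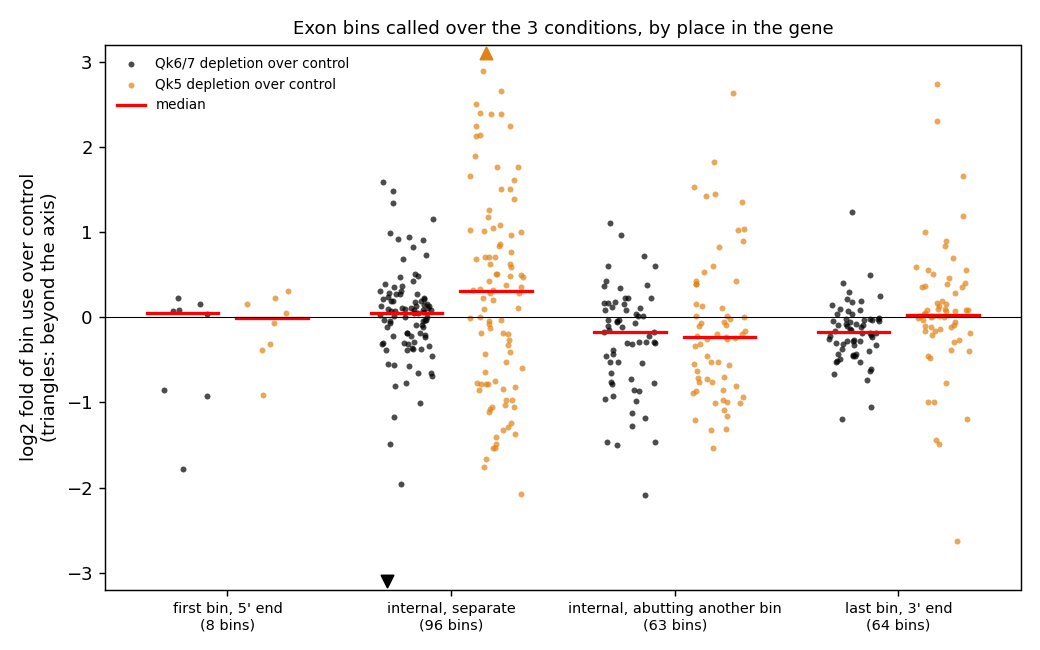
Each point is a called exon bin, placed by its position in the gene, with its log2 fold of use over control in Qk6/7 depletion (black) and Qk5 depletion (orange) and red bars at the medians. In Qk6/7 depletion the medians lie at 0.055 for first bins and separate internal bins and at -0.17 for abutting and last bins, and the points spread less than those of Qk5 depletion among internal bins; triangles are bins beyond the axis.

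Among separate internal bins several moved in opposite directions in the depletions. Phldb1, a phosphoinositide-binding scaffold of the cell cortex, had a 129 nt bin (mm9 chr9:44516477-44516605) at a log2 fold of -1.17 in Qk6/7 depletion and 2.25 in Qk5 depletion (adjusted p = 1.66e-05 by DEXSeq, per the authors' deposited table). Its other 22 bins with an adjusted p ranged between -0.59 and 0.41 in Qk6/7 depletion. Bnip2, a BCL2-interacting protein, had a 36 nt bin (mm9 chr9:69852113-69852148) at 0.68 in Qk6/7 depletion and -1.53 in Qk5 depletion (adjusted p = 1.70e-05 by DEXSeq), per the authors' deposited table. The other 13 bins of Bnip2 lay between -0.83 and 0.13 in Qk6/7 depletion. Capzb, the beta subunit of actin capping protein and a reported splicing target of Quaking, had a 113 nt bin (mm9 chr4:138844776-138844888) at 1.15 in Qk6/7 depletion and -0.82 in Qk5 depletion (adjusted p = 0.0392 by DEXSeq), per the authors' deposited table. Its other 10 bins with an adjusted p lay between -0.77 and 0.12 in Qk6/7 depletion. Rai14, the other reported target on the list, had an 87 nt bin at -0.38 in Qk6/7 depletion and 2.14 in Qk5 depletion (adjusted p = 1.47e-15 by DEXSeq), per the authors' deposited table. The other 20 bins of Rai14 lay between -0.97 and 0.29 in Qk6/7 depletion.

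Among the called separate internal bins, 48 of 96 had opposite signs in the depletions, so sign alone does not set the depletions apart in this group. The exon sequences below are examples picked from the bins with opposite signs. Each is the single exon of the bin's length that GENCODE M21 gives for the gene, on GRCm38 coordinates that were not converted from those of the bins. None holds the word ACTAA. The flanking introns were not searched, so whether Quaking has sites near these exons is not known here.
Phldb1 (chr9:44708394-44708522, minus strand): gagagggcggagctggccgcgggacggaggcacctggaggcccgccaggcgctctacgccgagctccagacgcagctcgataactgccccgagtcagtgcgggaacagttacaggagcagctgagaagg
Bnip2 (chr9:70004306-70004341, plus strand): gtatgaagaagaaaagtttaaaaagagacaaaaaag
Capzb (chr4:139288861-139288973, plus strand): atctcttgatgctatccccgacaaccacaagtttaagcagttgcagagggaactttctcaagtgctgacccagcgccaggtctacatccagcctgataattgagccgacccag

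The largest gains in use were in 370 nt and 191 nt bins of AK017143, a transcript with no further name in the files, at 1.59 and 1.48 in Qk6/7 depletion and 0.10 and -0.03 in Qk5 depletion, per the authors' deposited table. Slc4a7, a sodium bicarbonate cotransporter, followed with a 369 nt bin at 1.34 in Qk6/7 depletion and -1.29 in Qk5 depletion. Gas2l1, a linker of actin and microtubules, had its last bin at 1.23 in Qk6/7 depletion and 2.74 in Qk5 depletion, per the authors' deposited table. Tpm3, a tropomyosin, had a 79 nt bin at 0.82 in Qk6/7 depletion and -0.18 in Qk5 depletion (adjusted p = 0.000212 by DEXSeq), per the authors' deposited table. The other 12 bins of Tpm3 lay between -0.25 and 2.47, so that bins not called reached beyond the called one. Mapk6 (0.96), Ppil5 (0.94), the growth hormone receptor Ghr (0.92), the reticulon Rtn4 (0.73) and Gpr137 (0.72) also had bins used more in Qk6/7 depletion, per the authors' deposited table.

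Among bins used less, Ltbp1, which stores latent TGF-beta in the matrix, had its first bin at -1.78 in Qk6/7 depletion and 0.22 in Qk5 depletion (adjusted p = 2.11e-05 by DEXSeq, per the authors' deposited table). Mapk8, which encodes the stress kinase JNK1, had its last bin of 2897 nt at -1.19 in Qk6/7 depletion and 0 in Qk5 depletion (adjusted p = 3.71e-06 by DEXSeq), per the authors' deposited table, while its other 16 bins lay between -0.33 and 0.25. Mapk9, which encodes JNK2, had a 1291 nt bin that abuts another at -1.50 in Qk6/7 depletion and -1.32 in Qk5 depletion (adjusted p = 0.00034 by DEXSeq), per the authors' deposited table. Strbp, a spermatid RNA-binding protein, had a 10805 nt bin at -1.28 in Qk6/7 depletion and -0.63 in Qk5 depletion (adjusted p = 8.06e-17 by DEXSeq), per the authors' deposited table. Bins of Tacc2 (-2.09), Bsn (-1.96) and Agpat3 (-1.49) were also used less, with adjusted p of 0.0438, 0.0166 and 0.000798 by DEXSeq, per the authors' deposited table. Bsg, the lactate transporter partner basigin, had a 348 nt bin at -1.01 in Qk6/7 depletion and 1.26 in Qk5 depletion (adjusted p = 2.17e-06 by DEXSeq), per the authors' deposited table. Mettl6 (-1.47), Uspl1 (-1.46), 1700052N19Rik (-1.18), Mprip (-1.13), Tasp1 (-1.05), Mcm6 (-0.98) and Celf1 (-0.96) had bins used less as well, per the authors' deposited table. A 45 nt internal bin of a gene whose name the table stores as a date had a log2 fold of -9.84 in Qk6/7 depletion and 2.89 in Qk5 depletion (adjusted p = 0.0458 by DEXSeq), per the authors' deposited table. It falls outside the rule for named genes and was chosen after its value was seen. The next largest fall among called bins was -2.09. Counts per bin are not known here, so whether the value of -9.84 rests on few reads cannot be told.

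Of the 192 genes with a called bin, 7 were also called in expression, with 9 called bins. Of all genes tested in expression, 1.9% were called. In 4 of the 7 the gene was lower and its last bin was used less in Qk6/7 depletion. Most calls had these directions, with 214 genes lower and 101 higher, and 50 of the 64 called last bins used less. Eda2r averaged 724 normalized counts in Qk6/7 depletion and 1310 in control cells, and its 3610 nt last bin had a log2 fold of -0.46 (adjusted p = 1.61e-22 by DEXSeq), while the bins next to it had 0.22 and 0.43, per the authors' deposited table. In Qk5 depletion the last bin of Eda2r had a log2 fold of 0.10. Ero1l, an oxidase of the ER, averaged 886 normalized counts in Qk6/7 depletion and 1731 in control cells (fold 0.512) with its last bin at -0.52, Slc41a2, a magnesium transporter, averaged 749 normalized counts in Qk6/7 depletion and 1602 in control cells (fold 0.467) with its last bin at -0.31, and Sgms2, a sphingomyelin synthase, averaged 927 normalized counts in Qk6/7 depletion and 2021 in control cells (fold 0.459) with its last bin at -0.26, per the authors' deposited table. The 3′ UTRs of Eda2r, Ero1l and Sgms2 hold GTCTTAA or GGTCTTA, as do those of Celf2 and Tmem140, while that of Slc41a2 holds neither. These words had been picked from the lower genes, 37% of which hold either, so this is a description only. The gene of the splicing regulator Celf2 was lower (1048 normalized counts in Qk6/7 depletion and 1903 in control cells) and had a 4432 nt internal bin at 1.11 in Qk6/7 depletion and -0.46 in Qk5 depletion (adjusted p = 0.000436 by DEXSeq), per the authors' deposited table. Tmem140 was lower with a bin at 0.91, and Adamts6 was higher (fold 1.74) with a bin at -0.19.

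Among bins of listed genes, those of the tropomyosins Tpm1 and Tpm2 had smaller absolute log2 folds in Qk6/7 than in Qk5 depletion. Tpm2 had its 76 nt bins at -0.11 and -0.03 in Qk6/7 depletion, against 0.59 and -0.64 in Qk5 depletion, per the authors' deposited table. Of the 3 called bins of Tpm1, that of 126 nt had a log2 fold of -0.77 in Qk6/7 depletion and -1.03 in Qk5 depletion, and the other 2 had 0.05 and 0.17 in Qk6/7 depletion, against 1.61 and -1.21 in Qk5 depletion. Lamp2, a lysosomal membrane protein with alternative last exons, was at 3229 normalized counts in Qk6/7 depletion and 3141 in control cells, with a 508 nt bin at -0.69 in Qk6/7 depletion and 0.32 in Qk5 depletion (adjusted p = 1.48e-29 by DEXSeq), per the authors' deposited table. Psph, an enzyme of serine synthesis, had its first bin at -0.85 in Qk6/7 depletion and 0.05 in Qk5 depletion (adjusted p = 4.11e-06 by DEXSeq), per the authors' deposited table. Both genes had bins that were not called at lower values in Qk6/7 depletion, down to -0.73 in Lamp2 and -0.95 in Psph, and so did Celf1, down to -1.80.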

How the data were processed

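RNA from C2C12 myoblasts was compared between Qk6/7 depletion and control (3 replicates each). Per the submitters' processing notes, the authors used Bowtie2, TopHat2, SAMtools, bedtools and DESeq with the mm9 build, no version given. The sources used here name no counting method, strand setting or annotation, so a gene and an overlapping or antisense partner cannot be told apart. Per the file headers, the authors' expression table gives signal (mean read counts over size factors), the fold (a ratio), its log2, a p-value and adjusted p-value and a direction score per gene. Per the file headers, the authors' splicing table gives a log2 fold, a dispersion score and one joint DEXSeq p-value with its adjusted value per bin, for the 3 conditions. There are no values per replicate, so nothing was refitted and depth is unknown. Per-sample columns left unmapped were 0.

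Here 1 broken row was rejoined, and the numbers tested were recovered from the Benjamini-Hochberg values, a step tested on simulated data. Calls used the deposited adjusted p under 0.05. Named genes were Qk, the 15 largest rises and falls among called genes with a mean of at least 100, the 10 smallest adjusted p each way and called list members. For bins they were the 15 largest each way and called bins of listed genes or of genes called in expression, without names stored as dates. Members and lists were chosen with earlier results of these data known. Sequences came from GENCODE M21 (GRCm38) and RefSeq promoters, matched by symbol. Exons were matched by length. Thresholds, level minimums, fold minimums, pseudocounts and the 3′ UTR chosen were varied. Python 3.11.15, pandas 2.3.3 and numpy 2.4.6 were used. A few genes that the rule names are not reported here.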

Additional observations from a re-analysis of the deposited data

How the results depend on the processing

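The 101 genes called higher became 50 at an adjusted p of 0.01, 162 at 0.1 and 43 with at least a 2-fold change. The 214 genes called lower became 121 at 0.01, 106 with a mean at or above the table's median of 254.8 normalized counts, and 141 with at least a 2-fold change. The share of calls that were upward was 32.1%, and between 23.4% and 40.1% over these settings. Exon bins used more became 62 at an adjusted p of 0.01, 19 at an absolute log2 fold of at least 0.5 and 6 at 1, and bins used less 45 at 0.5 and 15 at 1. Called members of the pathway lists became 41 at 0.01, and the other settings moved these totals by less than 1.5 times. Of 28 single lists, 8 moved by more than that at 0.01, among them receptor tyrosine kinase signalling to 1 called member, myogenic factors to 1 and splicing regulators to 0. At a mean of at least 100 normalized counts 5 moved, with the interferon list at 3, and at 0.1 the sarcomere list alone, to 1. Of 88 named genes, 1 moved its fold by over 1.5 times with a pseudocount of 1 and 7 with one of 10, all with a group mean under 100, and none changed sign. The shortest 3′ UTR, chosen after seeing the data, gave lower shares of each word in both sets of genes. For ACTAAC the order of the sets stayed, with 17% of lower and 9.9% of higher genes against 28% and 17.8% in the longest 3′ UTR. For ACTAAT the order of the sets turned, with 15% of lower and 15.8% of higher genes against 30% and 27.7% in the longest 3′ UTR. Leaving out a replicate was not run. No paired analysis was possible because the tables hold no value per replicate. Weakly expressed genes rest on few reads, and the depth is not known.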

Other observations

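The genes in this paragraph were chosen after their values were seen. Polr2a, the largest subunit of RNA polymerase II, averaged 3645 normalized counts in Qk6/7 depletion and 1950 in control cells (fold 1.87), per the authors' deposited table. The ribosome production factor Pwp2 (fold 1.89), Naf1, an assembly factor of small nucleolar RNPs (1.79), the importin Ipo4 (1.78), Polr3e of RNA polymerase III (1.77) and Cad, an enzyme of pyrimidine synthesis (1.72), were called higher as well, per the authors' deposited table. Also called higher were the growth cone protein Gap43 (fold 1.84), the neurofilament gene Nefm (1.83), Syt7, a synaptotagmin (3.35), and the axon guidance factor Nav3 (1.70), per the authors' deposited table. On the lower side stood Bcl2l11 (Bim), a BH3-only protein like Bmf (fold 0.573), and Mxd4, which opposes Myc (0.445), per the authors' deposited table.

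A few genes called lower at low levels were likewise chosen after their values were seen. Csf2rb, a cytokine receptor chain, averaged 18.9 normalized counts in Qk6/7 depletion and 56.6 in control cells, and Lat2, an adaptor of immune receptors, 27.6 in Qk6/7 depletion and 78.6 in control cells, per the authors' deposited table. The toll-like receptor gene Tlr6 averaged 39.4 normalized counts in Qk6/7 depletion and 106 in control cells (fold 0.373), per the authors' deposited table. Whether these reads come from the C2C12 cells was not tested.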
